A study of Homo sapiens with 8 samples.

Results

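The genes TOP1, TOP2A, TOP2B, TOP3A, TOP3B, TDP1 and TDP2, which encode nuclear topoisomerases and the enzymes that remove them when they are trapped on DNA, were examined in MCF10A cells that were exposed to adriamycin (ADR, also called doxorubicin). These 7 genes were listed by name, and all 7 were found among the 20296 genes that could be named on the array. Topoisomerases relieve the twisting and tangling of DNA by cutting it and sealing it again while the enzyme is held to the cut end by a covalent bond. ADR binds type II topoisomerases on cut DNA and prevents sealing, so the bound enzyme and the break remain. TDP2 releases trapped type II enzymes and TDP1 releases mainly trapped TOP1. TOP2A is made chiefly in dividing cells, whereas TOP2B is made in dividing and resting cells alike.

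RNA of MCF10A, a line of breast epithelial cells that form no tumours, and of its p53-/- derivative was measured on 8 single-colour arrays, 1 for each genotype and time. For each of p53+/+ and p53-/-, 1 sample was untreated (0 h) and 3 samples were taken 12, 24 and 48 h after exposure to ADR. The sample labels give 0.5 µg/ml for 2 h, and the methods of the paper give another dose. All 8 samples come from the MCF10A line, and neither source says whether the p53-/- cells are 1 clone. No group had a replicate, so a value at a single time has no replicate error and no test. A level below is the log2 processed signal of the gene's probe less that array's 75th percentile on the same scale, so that 0 is the level of the 75th percentile probe. A change is a difference of such levels, and a change of at least 1 (2-fold) is called a rise or a fall. Levels of different genes come from different probes and are not compared with each other.

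p53 targets were read first as a check of the labels. MDM2, a p53 target that encodes its inhibitor, was at -1.66 on the library labelled p53+/+ 0 h, between -2.04 and -1.33 on the p53-/- arrays and between 1.29 and 1.76 on the treated p53+/+ arrays. CDKN1A, the p53 target that encodes the cell cycle inhibitor p21, was at -1.14 on the library labelled p53+/+ 0 h, -2.97 on the untreated p53-/- array, between -0.96 and -0.48 on the treated p53-/- arrays and between 2.54 and 2.70 on the treated p53+/+ arrays. Over all genes the library labelled p53+/+ 0 h was closest to p53-/- 12 h, with 4.88% of genes at least 2-fold apart. Of 108 probes that were at least 4-fold apart between the p53-/- and the treated p53+/+ arrays and varied by at most 0.7 within each, 104 were nearer to the p53-/- level on this library. CDKN1A on it was nonetheless 1.83 above the untreated p53-/- array. In most of these values it read like the p53-/- arrays, and a library of another genotype than labelled cannot be told apart here from untreated cells in which p53 targets are low. The p53+/+ changes that turn on it are also given from the p53-/- 0 h array. The comparison of treated genotypes needs neither.

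The basal epithelial keratins KRT5, KRT14 and KRT17 stood well above background on every one of the 8 arrays, and the level of KRT5 was 3.80 to 4.32 on the 5 arrays that are p53-/- or labelled p53+/+ 0 h against 5.79 to 6.54 on the treated p53+/+ arrays. TP63, a defining basal marker, was above background on 3 arrays only. The other basal markers read, CDH1, EGFR and ITGA6, were above background on 8 arrays. CDH1 was at -3.55 to -0.94 on the same 5 arrays and at 1.42 to 2.10 on the treated p53+/+ arrays. ITGA6 was at 1.88 to 2.27 against 2.86 to 3.29, and EGFR overlapped. Of the luminal hormone receptor genes, ESR1 was above background on 7 arrays, with levels of -5.22 to -4.00, and PGR on 0. The fibroblast marker DCN was at 5.70 to 6.07 on the same 5 arrays and at 2.09 to 2.37 on the treated p53+/+ arrays. Among the 6 markers of cell types that the culture should lack, PTPRC and DCN were above background on 8 arrays, PECAM1 on 5, VWF on 4, PDGFRB on 3 and CD3E on 1. On the treated p53+/+ arrays PECAM1 was at most -4.77, against at least -2.39 on the other arrays. The part of these marker differences in the results below was not tested. Between 49.8 and 62.9% of probes per array were well above background. On the p53+/+ 48 h array, 0 of 10 spike-in transcripts were well above background, against 6 of 10 on each of the 7 other arrays, so that the limma calls below which change without this array are given both ways.

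TOP2A, the type II enzyme of dividing cells and a direct target of ADR, separated the genotypes more than any other of the 7 genes. The 250 bases before the starts of TOP2A and TOP2B are shown since these genes encode the same kind of enzyme but followed different courses. They are taken from RefSeq on GRCh38.p14, at chr17:40417897-40418146 and chr3:25664373-25664622, both on the minus strand, and end at the base before the start. Capitals mark CCAAT or its reverse complement ATTGG, the CCAAT box, and TTTGAA or its reverse complement TTCAAA, the core of the element called CHR.
TOP2A: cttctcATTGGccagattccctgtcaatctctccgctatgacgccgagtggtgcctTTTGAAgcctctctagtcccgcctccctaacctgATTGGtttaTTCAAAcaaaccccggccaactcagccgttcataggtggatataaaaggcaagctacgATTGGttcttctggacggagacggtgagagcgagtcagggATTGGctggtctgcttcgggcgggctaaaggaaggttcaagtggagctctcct
TOP2B: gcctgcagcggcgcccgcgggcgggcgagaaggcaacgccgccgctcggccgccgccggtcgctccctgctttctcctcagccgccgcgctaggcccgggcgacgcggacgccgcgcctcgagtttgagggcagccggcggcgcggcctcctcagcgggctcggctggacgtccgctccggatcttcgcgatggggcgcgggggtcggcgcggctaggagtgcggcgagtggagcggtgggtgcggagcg
The TOP2A sequence holds 4 CCAAT boxes, 244, 160, 93 and 53 bases before the start, and 2 CHR cores, 194 and 151 bases before it. The TOP2B sequence holds neither, and its GC content is 78.8% against 53.2% for TOP2A. Among 35116 RefSeq promoters of this length, 32% held at least 1 CCAAT box and 0.874% held at least 4, while 13.3% held at least 1 CHR core and 1.72% at least 2. RefSeq sequences of this kind were matched for 7 of 7 genes, and of the other 5 only TDP1 held a CHR core (1, 30 bases before the start) and none held a CCAAT box. The TATA box TATAAA was found in TOP2A alone of the 7 (1, 111 bases before the start; in 3763 of all 35116), the E2F core TTCCCGC in TOP3A alone (1, 116 bases before the start; in 5.52%) and the p53 consensus half-site in 0 of 7 (in 5.57%). All 5 motifs were searched on both strands and chosen after the TOP2A sequence had been seen, and a match describes letters and not binding.

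TOP2A was measured by 1 probe printed in 10 spots on each array. Its level in p53-/- cells was 2.86, 1.89, 2.53 and 2.71 at 0, 12, 24 and 48 h. It was 1.52 on the library labelled p53+/+ 0 h and -0.04, 0.30 and -6.50 on the p53+/+ arrays at 12, 24 and 48 h. The treated p53+/+ arrays all lay below the p53-/- arrays, and at 48 h the probe was not well above background, with spots between -6.92 and -6.03. At equal times p53+/+ was lower than p53-/- by 3.81-fold at 12 h, 4.71-fold at 24 h and at least 162-fold at 48 h. The last value is a bound, set by the lowest level of any probe that was well above background on that array (-4.63), since below it the signal has no measured size. The technical SD for a log2 change of TOP2A was 0.027 to 0.084. It was taken from the spread between spots of probes printed in 10 spots at like signal levels, and not from the spots of TOP2A alone.

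From the library labelled p53+/+ 0 h, TOP2A fell by 1.56 at 12 h and by 1.22 at 24 h, and was at least 70.7-fold lower at 48 h. From the p53-/- 0 h array the falls were 2.89 and 2.56, and at least 179-fold. The largest step, of at least 30.4-fold, lay between 24 and 48 h and so depends on the p53+/+ 48 h array, whose spike-ins were not above background, and of 12752 genes above background at 24 h 22, TOP2A included, had a step or bound of at least that size. In the same interval 387 genes went from well above background to not above it. In p53-/- cells the change of TOP2A from 0 h was -0.96, -0.32 and -0.15 at the 3 times, under 2-fold at each time. Without scaling between arrays, the change at 48 h in p53-/- cells was 0.30.

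**Figure D1:**
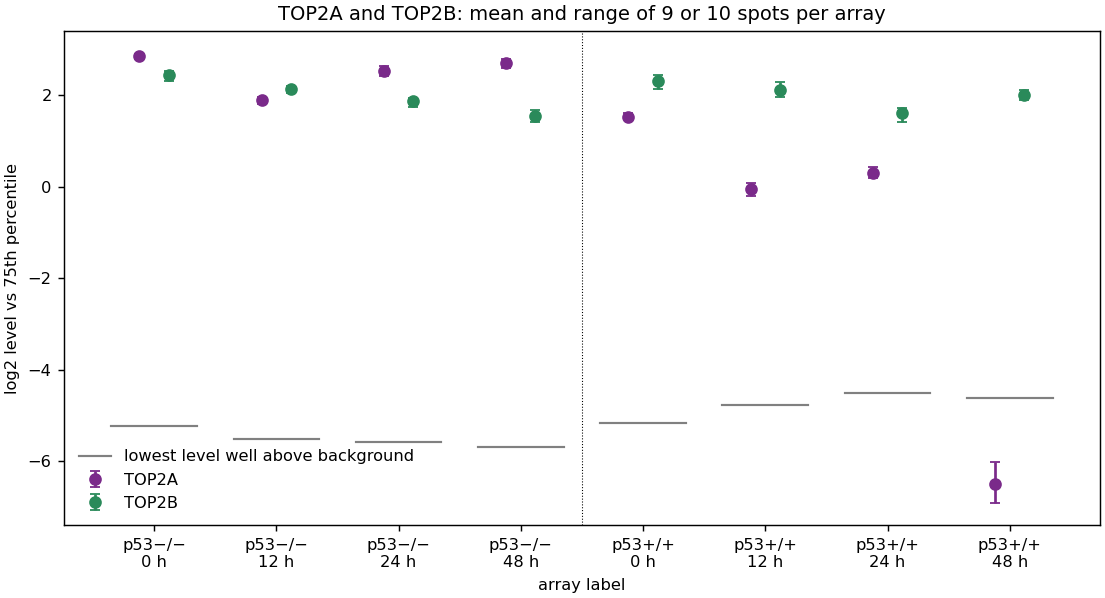
Mean level (log2 processed signal relative to the 75th percentile of the array) of TOP2A and TOP2B on each array, with bars from the lowest to the highest spot and a grey line at the lowest level that was well above background. TOP2A lies at -6.50 on the p53+/+ 48 h array, below the line, whereas TOP2B stays between 1.55 and 2.44 on all 8 arrays; the distance between the genes has no meaning since the probes differ.

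TOP2B, the other type II target of ADR, did not part by genotype. Its level in p53-/- cells was 2.44, 2.13, 1.88 and 1.55 at 0, 12, 24 and 48 h. It was 2.32 on the library labelled p53+/+ 0 h and 2.11, 1.62 and 2.02 on the p53+/+ arrays at 12, 24 and 48 h. The treated genotypes overlapped. In p53-/- cells the level was lower at each later time, with a change of -0.89 at 48 h that is under 2-fold, and in p53+/+ cells it was lowest at 24 h. The difference of p53+/+ minus p53-/- was -0.02, -0.26 and 0.47 at the 3 times.

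TOP1 relaxes supercoils by cutting a strand at a time and is not the main target of ADR. Its level in p53-/- cells was 0.88, 1.28, 0.94 and 0.80 at 0, 12, 24 and 48 h. It was 1.39 on the library labelled p53+/+ 0 h and 1.63, 1.52 and 0.96 on the p53+/+ arrays at 12, 24 and 48 h. p53+/+ was higher than p53-/- by 0.34, 0.58 and 0.16 at the 3 times, all under 2-fold, and the treated groups overlapped. A second TOP1 probe was at -1.10, -1.11 and -1.20 on the treated p53-/- arrays and at -0.53, -0.54 and 0.17 on the treated p53+/+ arrays. On this second probe the treated groups did not overlap. The probes disagreed at 48 h, where that of the main probe was the lowest of the treated p53+/+ levels and that of the second the highest.

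TOP3A acts with the BLM helicase and RMI1 and RMI2 to separate joined DNA molecules, and was lower in treated p53+/+ cells. Its level in p53-/- cells was -0.49 at 0 h and 0.41, 0.25 and 0.52 at 12, 24 and 48 h. It was 0.39 on the library labelled p53+/+ 0 h and -0.61, -0.51 and -0.51 on the p53+/+ arrays at 12, 24 and 48 h. All treated p53+/+ levels lay below all treated p53-/- levels, by 2.03-fold at 12 h, 1.69-fold at 24 h and 2.05-fold at 48 h. In p53-/- cells TOP3A changed by 0.91, 0.74 and 1.02 from 0 h, so that it passed 2-fold at 48 h only. The change in p53+/+ cells depended on the baseline. From the library labelled p53+/+ 0 h it was -0.997, -0.90 and -0.90, and from the p53-/- 0 h array it was -0.12, -0.02 and -0.02.

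TOP3B, which can also act on RNA, overlapped between the treated genotypes. Its level in p53-/- cells was -1.91, -1.49, -1.49 and -1.24 at 0, 12, 24 and 48 h. It was -1.76 on the library labelled p53+/+ 0 h and -1.40, -1.41 and -1.30 on the p53+/+ arrays at 12, 24 and 48 h. The treated levels were above the untreated ones on all 6 arrays, with a change of at most 0.68. A second TOP3B probe was likewise at -1.76 to -1.26 on the treated arrays and at -2.21 and -2.00 on the untreated ones.

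**Figure D2:**
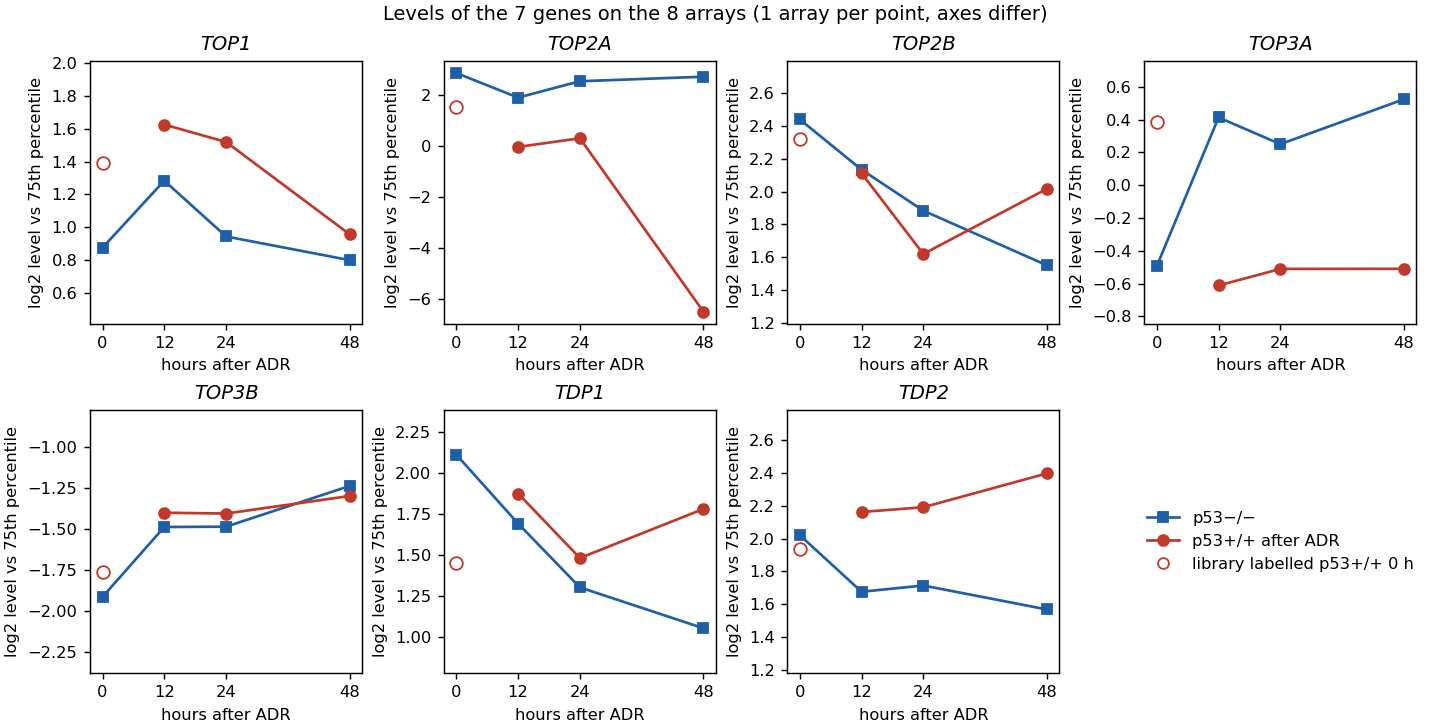
Level of each gene (log2 processed signal relative to the 75th percentile of the array) against hours after ADR, 1 array per point, for p53-/- (squares) and treated p53+/+ cells (circles), with the library labelled p53+/+ 0 h as an open circle; each panel has its own axis. By the main probe of each gene, TOP2A and TOP3A of treated p53+/+ cells lie below those of treated p53-/- cells. TDP2 lies above, and the other 4 genes overlap. The share of all genes without overlap was not counted, so the lack of overlap is not shown to be particular to these genes.

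Of the enzymes that release trapped topoisomerases, TDP1 fell with time in p53-/- cells, and TDP2 was higher in treated p53+/+ than in treated p53-/- cells. TDP1, which removes mainly TOP1, was at 2.11, 1.69, 1.30 and 1.05 on the p53-/- arrays at 0, 12, 24 and 48 h. It was at 1.45 on the library labelled p53+/+ 0 h and at 1.87, 1.48 and 1.78 on the p53+/+ arrays at 12, 24 and 48 h. TDP1 thus fell by 1.06 (2.08-fold) by 48 h in p53-/- cells, and the treated groups overlapped. Without scaling this change was -0.61. The difference of p53+/+ minus p53-/- was 0.18, 0.18 and 0.73.

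TDP2, which removes trapped type II enzymes, was at 2.02, 1.68, 1.71 and 1.57 on the p53-/- arrays at 0, 12, 24 and 48 h. It was at 1.94 on the library labelled p53+/+ 0 h and at 2.16, 2.19 and 2.40 on the p53+/+ arrays at 12, 24 and 48 h. All treated p53+/+ levels lay above all treated p53-/- levels, and above both untreated arrays. The difference of p53+/+ minus p53-/- was 0.49, 0.48 and 0.83 at the 3 times, under 2-fold at each. The change of TDP2 in p53-/- cells was -0.34, -0.31 and -0.45.

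Changes of at least 2-fold from 0 h were few among the 7 genes. In p53-/- cells 0 of 7 passed at 12 and at 24 h, and 2 of 7 (TOP3A up, TDP1 down) at 48 h, where 10.4%, 15.0% and 22.4% of all 15811 genes passed in either direction at 12, 24 and 48 h. In p53+/+ cells measured from the library labelled p53+/+ 0 h, 1 of 7 (TOP2A) passed at each time, against 23.9%, 30.0% and 31.3% of all genes. Between treated genotypes 2 of 7 (TOP2A and TOP3A) passed at 12 h, 1 of 7 (TOP2A) at 24 h and 2 of 7 (TOP2A and TOP3A) at 48 h, against 22.5%, 27.1% and 31.5% of all genes. These counts are near or below the background. With normexp background correction TOP3A was under 2-fold between treated genotypes at each time, and the changes of TOP3A and TDP1 at 48 h in p53-/- cells were 0.97 and -0.99.

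The genotypes were then tested over the 6 treated arrays with limma, where the 3 times stand in for replicates. The p-values therefore set a genotype difference against the movement between 12 and 48 h and not against replicate cultures, and they are adjusted over the 15669 genes tested. Of the 7 genes 2 were called, against 23.0% of all genes. TOP3A was lower in p53+/+ by 0.94 ± 0.17 (SE; limma, adjusted p = 0.0109), with 3 of 3 times in that direction. TDP2 was higher by 0.60 ± 0.17 (SE; limma, adjusted p = 0.0449), again at 3 of 3 times. The TDP2 call was lost when any of the 6 arrays was left out (limma, adjusted p = 0.0722 to 0.134) and with the time point as a block (0.0798).

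TOP2A had the largest mean difference of the 7 genes, -4.46 ± 1.75 (SE), and was not called (limma, adjusted p = 0.116). This value takes the 48 h signal below background at its face. With signals raised to the lowest measured level the difference was -3.83 and called (limma, adjusted p = 0.0460). Without the p53+/+ 48 h array the difference was -2.25 and called (limma, adjusted p = 0.00918), and without both 48 h arrays it was -2.08 and called (limma, adjusted p = 0.0223). Without the p53+/+ 48 h array TOP3A stayed called (-0.96, adjusted p = 0.0218). Without both 48 h arrays TOP3A (-0.89, adjusted p = 0.0522) and TDP2 (0.48, adjusted p = 0.162) were not called. The other 4 genes were not called, with differences of 0.36 ± 0.23 for TDP1, 0.36 ± 0.25 for TOP1, 0.06 ± 0.23 for TOP2B and 0.03 ± 0.17 for TOP3B (SE; limma, adjusted p = 0.296, 0.342, 0.882 and 0.904). Without scaling, the median gene was lower on the treated p53+/+ arrays by 0.37, 0.52 and 0.76 at the 3 times. TOP3A and TOP2A stayed lower there, whereas the directions of TDP2, TDP1, TOP1, TOP2B and TOP3B turned, so that the positive differences hold only relative to the other genes.

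**Figure D3:**
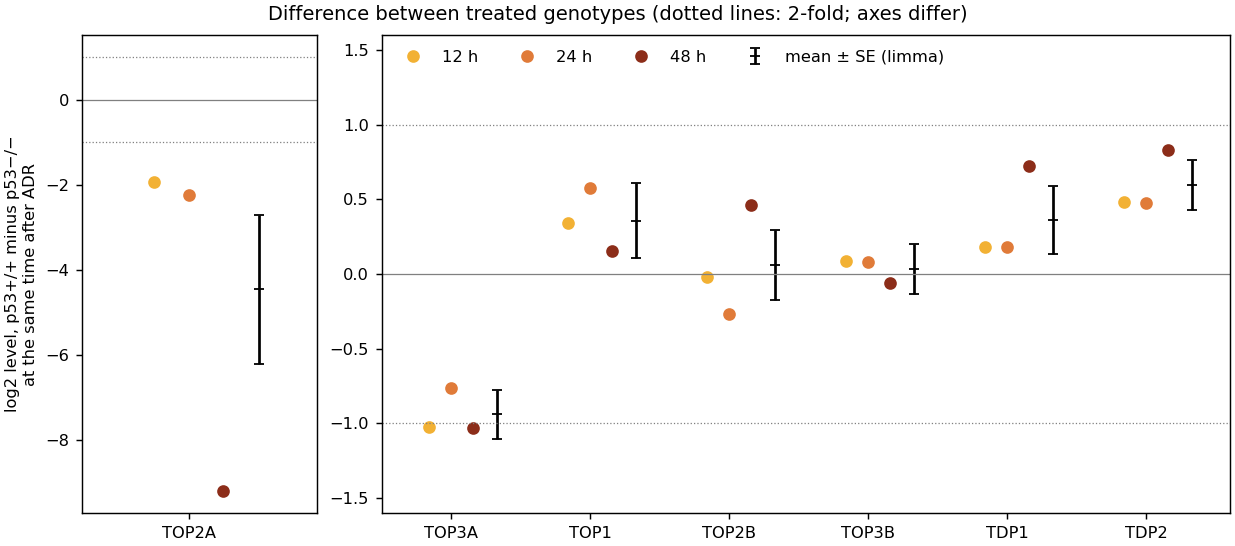
Level in p53+/+ cells minus level in p53-/- cells (log2) at 12, 24 and 48 h after ADR, with the mean and its SE from limma in black; dotted lines mark 2-fold and TOP2A has its own axis. TOP3A lies below 0 and TDP2 above 0 at all 3 times, while the SE of TOP2A is wide because its 48 h point, which lies below background, stands far from the others.

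The partners of the topoisomerases and the other factors that process trapped enzymes were mixed. Of 18 genes 17 were tested, 4 were lower in treated p53+/+ cells and 1 was higher (limma, adjusted p at most 0.05), where 10.3% of all genes were lower and 12.7% higher. The median difference was -0.26, against 0.04 over all genes tested. With the p53+/+ 48 h array left out, 6 were lower and 0 higher, where 10.1% of all genes were lower. The 4 lower with that array kept were RMI1 (-2.02, adjusted p = 0.0205), the break sensor PARP1 (-1.10, adjusted p = 0.0162), the end resection factor RBBP8 (-0.75, adjusted p = 0.0341) and the ubiquitin ligase RNF4 (-0.75, adjusted p = 0.0246). The protease SPRTN, which degrades proteins bound to DNA, was higher (0.74, adjusted p = 0.0416), but not without the p53+/+ 48 h array (adjusted p = 0.0885). SPO11, the meiotic relative of the topoisomerases, was above background on 0 arrays. PARP1, RBBP8, RNF4 and SPRTN are named beside the rule for naming, since they complete the count.

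The subunits that act with TOP3A had lower levels in treated p53+/+ cells, most at 48 h. The level of RMI1 at 12, 24 and 48 h was 1.36, 1.48 and 1.28 without p53, against -0.00232, -0.27 and -1.67 with it. That of RMI2 was 2.70, 3.31 and 2.86 against 1.26, 2.02 and -1.70, and that of BLM was 1.42, 1.43 and 1.07 against -0.17, -0.74 and -4.78, the last not well above background. The treated genotypes did not overlap for any of these 3 genes, but RMI2 (-2.43, adjusted p = 0.104) and BLM (-3.20, adjusted p = 0.0922) were not called by limma. These 3 were named for the largest treated differences of their list, so their lack of overlap is no separate result. Both were called without the p53+/+ 48 h array (-1.32, adjusted p = 0.0424, and -1.76, adjusted p = 0.0108).

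Of the 8 genes for joining double-strand breaks, 7 were tested (LIG4 was above background on 0 arrays), 2 were lower and none was higher, with a median difference of -0.63 and the same 10.3% of all genes lower. The kinase PRKDC (-1.15, adjusted p = 0.0370) and the nuclease DCLRE1C (-0.82, adjusted p = 0.0146) were lower by limma, and XRCC5, which encodes a subunit of Ku, was not called (-0.63, adjusted p = 0.222). Of these only DCLRE1C was lower without the p53+/+ 48 h array, and PRKDC was not called (-0.94, adjusted p = 0.0792). All 8 condensin genes, whose products fold chromosomes alongside TOP2A, had differences below 0 and 6 of 8 were called lower, with a median of -2.07. NCAPD3 (-2.23, adjusted p = 0.0203) and NCAPG (-3.38, adjusted p = 0.0410) were lower by limma, and NCAPG2 was not called (-3.16, adjusted p = 0.126). Without the p53+/+ 48 h array 8 of 8 were called lower, NCAPG2 included (-1.54, adjusted p = 0.0102), with a median of -1.44. In that fit 10.1% of all genes were lower.

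Of the 13 proliferation genes 12 had differences below 0 and 6 were called lower by limma, with a median of -3.47. Of all genes 10.3% were called lower. CDC20, an activator of mitotic exit, was lower (-4.41, adjusted p = 0.0396), whereas the mitotic genes AURKB (-4.09, adjusted p = 0.0566) and BIRC5 (-4.77, adjusted p = 0.135) were not called. Without the p53+/+ 48 h array 12 were called lower, AURKB (-2.56, adjusted p = 0.00669) and BIRC5 (-2.23, adjusted p = 0.00642) included, with a median of -1.88. In that fit 10.1% of all genes were lower. The exception in direction was PCNA (0.36, adjusted p = 0.378). On the p53+/+ 48 h array 3 condensin genes and 6 proliferation genes were not well above background, and with levels raised to the lowest measured level the medians were -1.90 and -3.06, beside 0.16 over all genes tested. In p53-/- cells the medians of the proliferation genes from 0 h were -0.68, -0.32 and -0.06, with a course like that of TOP2A there. A fall of these RNAs in fewer dividing cells and a fall per cell cannot be told apart in RNA of whole cultures.

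**Figure D4:**
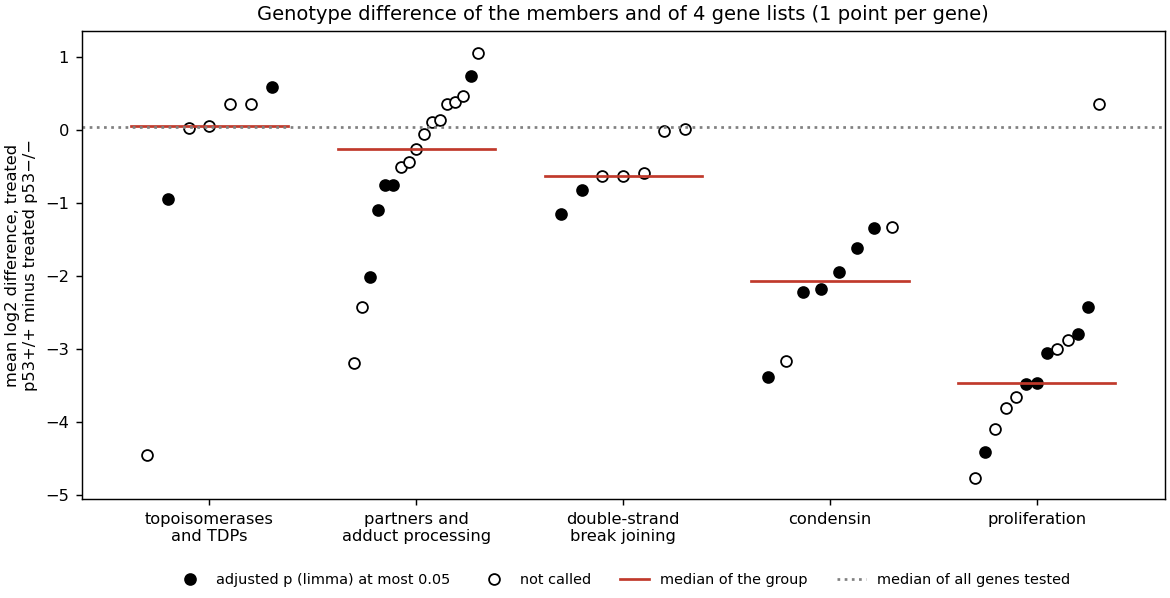
Mean log2 difference, treated p53+/+ minus treated p53-/-, for each of the 7 genes and each tested gene of 4 lists; filled points were called by limma, red lines are medians and the dotted line is the median of all genes tested (0.04). The medians of condensin (-2.07) and proliferation (-3.47) lie far below that line, and TOP2A (-4.46) lies apart from the other 6 genes.

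Genes with the course most like that of each member were sought over the 8 arrays for the 3 members that spanned at least 1 on the log2 scale, among 10426 genes that did so too. Those nearest to TOP2A by Pearson correlation were TTK (0.999), NUF2 (0.999), CEP55 (0.998), MKI67 (0.998) and CKAP2L (0.997), of which TTK, NUF2 and CEP55 are known for roles in cell division and MKI67 as a proliferation marker. All 5 share the low level on the p53+/+ 48 h array, which weighs most in these values. The nearest to TOP3A were CDKN2AIP (0.981), CIDECP1 (0.978), RNF34 (0.976), ZNF250 (0.976) and EIF4A3 (0.975). The nearest to TDP1 were SDCCAG8 (0.961), CDYL2 (0.950), KIF16B (0.943), WDR70 (0.941) and TOP6BL (0.937). The levels of CDYL2, -5.81 to -4.48, overlap the lowest levels well above background (-5.70 to -4.50 by array), so part of its course may have no measured size. The correlations describe 8 arrays that share 2 genotypes and the scaling.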

How the data were processed

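RNA of 8 samples was measured on single-colour Agilent arrays. The authors deposited scanner output from Agilent Feature Extraction (10.7.3.1 per the submitters' notes), of which the background-corrected intensity of each spot, called processed signal and not on a log scale, was used. The series-wide table repeats it (503808 of 503808 values equal within a relative tolerance of 1e-06). The file headers name the build hg19, and no array coordinates are given.

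Control spots and spots flagged as outliers (233 to 370 of 58717 per array) were left out, and the log2 signal minus the log2 of the array's 75th percentile (661 to 1199) was averaged per probe. Probes were named through RefSeq accessions of GRCh38.p14, which matched 27227 of 42405 probes (64.2%), and a gene was read from its probe with the highest mean. The technical SD came from 999 probes printed in 10 spots. No spot was saturated (0 on each array).

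Genes well above background on at least 1 array entered the comparisons, and limma (lmFit, eBayes, 4 residual degrees of freedom) was run on genotype over the 6 treated arrays with Benjamini-Hochberg adjustment. The fit was tested on simulated data in which 200 of 15669 genes were changed. It called 16% of the log2 changes of 1 and 57% of those of 2, with 4 false calls. A gene that was not called may therefore still differ. Named were all 7 members, CDKN1A and MDM2, up to 3 genes per list with the largest treated difference, and the 5 nearest genes in course. An item that this rule covers is not reported here. Members and lists were chosen with earlier results of these data known. The alternatives were median, quantile and no scaling, normexp (offset 50) on the median spot signal, the mean of all probes, a signal floor, the p53-/- 0 h baseline, 1.5- and 3-fold rules, other filters, the time as a block and each treated array left out. The fit used limma 3.58.1 in R 4.3.3, and tables and plots were made in Python 3.11.15 with pandas 2.3.3, numpy 2.4.6 and matplotlib 3.10.9. The number of arrays limits the precision.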

Additional observations from a re-analysis of the deposited data

Results flagged for a closer look

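In 3 genes all 3 changes from 0 h went one way in p53+/+ cells and the other way in p53-/- cells. The share of all genes that did so was not counted, so the count is not shown to be particular to these genes. All 3 changes of a genotype are measured from the same 0 h array, so their common direction is not 3 separate results. For TDP1 the p53+/+ change at 24 h was only 0.03, within its technical SD of 0.066. It was -0.09 with median scaling. Averaged over the times, the p53+/+ change less the p53-/- change was -1.82 for TOP3A, 1.03 for TDP1 and 0.682 for TDP2 on the log2 scale. The difference was not tested, and it rests on the library labelled p53+/+ 0 h, which read like the p53-/- arrays. From the p53-/- 0 h array the p53+/+ changes at 12, 24 and 48 h were -0.12, -0.02 and -0.02 for TOP3A, -0.24, -0.63 and -0.33 for TDP1 and 0.14, 0.17 and 0.38 for TDP2, so TDP1 then went the same way in both genotypes.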

How the results depend on the processing

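Of 510 values of single genes under alternative settings, 424 kept both their direction and their side of the threshold, and 50 changed sign, 29 of them without scaling. A called value changed sign in 1 case, that of TDP2 between treated genotypes, which was -0.00117 without scaling (limma, adjusted p = 0.996). The count of member changes from 0 h in p53+/+ cells, 3 of 21, was 6 with median scaling, 8 without scaling, 7 with the 1.5-fold rule and 1 with the 3-fold rule. That in p53-/- cells, 2 of 21, was 4 without scaling, 0 with normexp, 8 with the 1.5-fold rule and 0 with the 3-fold rule. That between treated genotypes, 5 of 21, was 3 with normexp, 8 with the 1.5-fold rule and 3 with the 3-fold rule. Quantile normalization gave 4 changes from 0 h in p53+/+ cells and 3 in p53-/- cells. Without scaling there were 6 differences between treated genotypes. The 2 members called by limma became 1 with median scaling, 1 with the time point as a block, 1 without both 48 h arrays (added after the data were examined) and 1 to 2 with each array left out. They became 3 with normexp, with the signal floor and with the mean of all probes.

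Over its 16 alternatives the adjusted p of TOP3A was 0.00284 to 0.0522, with differences of -1.54 to -0.85 and 15 calls. TDP2 had 6 calls of 16, TOP2A 4 of 15 (also with normexp and with the signal floor), TOP1 1 (mean of all probes, 0.60, adjusted p = 0.0431) and TOP3B 1 (no scaling, -0.56, adjusted p = 0.0481). Limma called 3604 genes (1992 higher, 1612 lower in p53+/+), against 6406 without scaling (966 higher, 5440 lower), 5785 without a filter, 2319 without both 48 h arrays and 1538 to 3172 with each array left out. The split was 1530 higher and 2065 lower with median scaling, 3119 and 1886 with normexp and 3075 and 1835 with the signal floor. No paired analysis was possible because each group holds 1 array, other than pairing the treated genotypes by time, where TOP3A was called (limma, adjusted p = 0.0286) and TDP2 was not (0.0798). The lists without the p53+/+ 48 h array were added after the data were examined. A level below the lowest one well above background (-5.70 to -4.50 by array) has no measured size, which limits TOP2A at 48 h in p53+/+ cells.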
